A study of Mus musculus with 6 samples.

Results

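Expression of 8 genes around the plasminogen activator system was followed in primary mouse embryonic fibroblasts (MEFs, connective tissue cells grown from mid-gestation embryos) with intact Kansl1 or after its induced deletion. Kansl1 encodes a scaffold protein of the NSL histone acetyltransferase complex. The genes were Serpine2, Serpinb2, Serpinf1, Serpinh1, Plau, Plat, Plaur and Lrp1, each found by its symbol as 1 row among 26898 rows of the expression table. The set was chosen by the measured TPM of Serpine2 in these same samples, which was much higher in knockout cells, so that the difference between knockout and control is given for all 8 as a description, without a test. The 3 WT samples (WT 4, 5 and 8) were C57BL/6 MEFs of genotype Kansl1fl/fl, in which both alleles carry recombination sites. The 3 KO samples (KO 3, 7 and 10) were C57BL/6 MEFs of genotype Kansl1fl/fl/CAG-cre, whose Cre is driven by the broadly active CAG promoter and switched on by tamoxifen. All 6 cultures were primary cells at passage 3 that had received 1 μM tamoxifen for 48 h, and the study's methods give n = 3 for each genotype. KO cells differed from WT cells in Cre as well as in Kansl1, and the effects of these cannot be told apart.

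Plasminogen is the inactive form of plasmin, a protease that dissolves fibrin and cuts matrix proteins. It is cut to plasmin by urokinase (encoded by Plau) or by tissue plasminogen activator (Plat), and the urokinase receptor (Plaur) holds urokinase on the cell surface. Serpins are suicide inhibitors: the protease cuts a loop of the serpin and is trapped in a covalent complex with it. SERPINE2, also called protease nexin-1 or glia-derived nexin, traps thrombin, urokinase and plasmin near the cell surface, SERPINB2 (PAI-2) traps urokinase, and LRP1 takes up such complexes for degradation. SERPINF1 (pigment epithelium-derived factor) and SERPINH1 (HSP47, a collagen chaperone of the endoplasmic reticulum) belong to the same family but do not inhibit proteases.

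The reads assigned to genes, recovered from the table, came to between 22812595 and 24263082 in WT and between 17655495 and 27718259 in KO samples. Kansl1 itself was at 28.5, 26.7 and 24.4 TPM (a unit scaled for transcript length that sums to 1000000 in each sample) in WT 4, 5 and 8 and at 13.7, 15.8 and 14.4 TPM in KO 3, 7 and 10, so that every KO sample lay below every WT sample. The KO mean was 55.1% of the WT mean, and since TPM takes in all exons, reads from outside the deleted part of Kansl1 are included. How much of the remaining level came from such reads was not tested. All 10 fibroblast markers passed the filter on low expression, with a summed level of 10277 to 14857 TPM in WT and 11006 to 14443 TPM in KO samples. The 10 macrophage markers summed to 39.7 to 48.1 TPM in WT and to 90.2 to 179 TPM in KO samples. Of these, 9 were tested, and in all 9 every KO sample lay above every WT sample (13.3% of all tested genes), with KO means 2.03 to 3.97 times the WT means; 2 of the 9 had passed the filter on low expression only through the KO group. Called higher were 2 of them, Lyz2 and C1qc (1.64% of all tested genes). None of the 10 was listed at 0, and Ptprc was at most 0.257 TPM in all 6 samples. Summed endothelial markers were at most 5.57 TPM and summed Schwann cell markers at most 9.63 TPM in every sample. Summed epithelial markers were at 40.4 to 45.7 TPM in WT and 49.2 to 66.3 TPM in KO samples, and summed muscle markers at 80.5 to 108 TPM and 70.6 to 86.7 TPM. None of the markers of these 4 cell types was called. Plau, Plaur and Serpinb2 are also expressed by macrophages, and the part of these markers in the results was not tested. In bulk RNA, fewer cells of a type and less RNA per cell cannot be told apart. WT 4 stood apart from the other WT samples. Of the 7747 genes that averaged 10 TPM or more, 3.01% lay more than 1.5-fold above or below both other WT samples in WT 4, compared with 0.361% in WT 5 and 0.516% in WT 8. Results for the members are therefore also given without WT 4.

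RefSeq promoters (build GRCm38.p6) were on hand for 6 of the 8 genes, and 3 are shown: that of Serpine2, which had the largest fold change of the 8, that of the other plasminogen activator inhibitor gene Serpinb2, which had the lowest GC content of the 6, and that of Plaur, which also held several GC boxes. Each is the 250 bases upstream of a RefSeq start site, 5′ to 3′ on the strand of the gene, with capitals marking every match on either strand to the GC box, which is spelled GGGCGG and is known as a site of SP1, to the TATA box of core promoters, spelled TATAAA, to the CCAAT box of NF-Y, named for its letters, or to the site of the AP-1 factors, spelled TGANTCA.
Serpine2: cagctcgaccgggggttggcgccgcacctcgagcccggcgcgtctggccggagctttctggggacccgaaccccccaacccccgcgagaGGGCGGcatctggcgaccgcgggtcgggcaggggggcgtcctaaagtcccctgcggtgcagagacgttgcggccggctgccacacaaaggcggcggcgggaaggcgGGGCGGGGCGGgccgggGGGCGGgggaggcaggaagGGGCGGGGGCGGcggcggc
Serpinb2: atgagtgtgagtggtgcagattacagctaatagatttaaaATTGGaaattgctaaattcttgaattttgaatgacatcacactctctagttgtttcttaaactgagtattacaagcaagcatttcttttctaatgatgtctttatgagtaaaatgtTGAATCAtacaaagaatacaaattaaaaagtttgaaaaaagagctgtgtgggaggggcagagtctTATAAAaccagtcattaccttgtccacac
Plaur: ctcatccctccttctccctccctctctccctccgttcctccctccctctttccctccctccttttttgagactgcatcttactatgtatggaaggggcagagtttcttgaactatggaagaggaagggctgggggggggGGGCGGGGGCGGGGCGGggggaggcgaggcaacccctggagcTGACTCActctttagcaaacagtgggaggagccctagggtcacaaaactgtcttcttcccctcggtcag
The Serpine2 window (chr1:79858666-79858915, minus strand) held 34 CpG, more than 96.5% of 32851 promoter windows, and a GC content of 78.8% against a median of 52.4%. It held 6 GC boxes, a pair of which overlap, and at least 6 were found in 0.886% of the windows, while 32.7% held at least 1. GENCODE places 31 of its bases in an exon of Serpine2. The Serpinb2 window (chr1:107511173-107511422, plus strand, the upstream one of its RefSeq starts) held 0 CpG and no GC box. It had a TATA box, found in 12.4% of windows, an AP-1 site, found in 6.75%, and a CCAAT box, found in 33.8%. The Plaur window (chr7:24462233-24462482, plus strand) had 3 GC boxes, which overlap in part, and 1 AP-1 site. Single GC boxes were matched in the Lrp1 and Serpinh1 windows and 3 CCAAT boxes in that of Serpinf1. These matches describe the sequence only, and no binding was measured here.

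Serpine2 was higher in KO MEFs. Serpine2 (ENSMUSG00000026249.10, chromosome 1, 79794197 to 79861180, minus strand, 10 merged exons in GENCODE M21, build mm10) was at 40.8, 30.4 and 28.9 TPM in WT 4, 5 and 8 and at 84.9, 98.2 and 89.3 TPM in KO 3, 7 and 10. The groups were far apart, as the lowest KO sample lay above the highest WT sample, WT 4. The mean was 33.4 ± 6.46 TPM (SD, n = 3) in WT and 90.8 ± 6.78 TPM (SD, n = 3) in KO cells, a 2.72-fold difference. On the log2(TPM + 1) scale used throughout, which compresses differences of weakly expressed genes, the log2 fold change was 1.43 (SE 0.14). Without WT 4, the log2 fold change was 1.58. These values rested on 2211 to 2739 reads in WT and 5118 to 7886 reads in KO samples. Among all 14799 tested genes the fold change of Serpine2 ranked 57 from the top, and among the 7747 genes averaging 10 TPM or more it ranked 12.

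As a count and not as a test, 1 of the 8 members, Serpine2, lay past the thresholds of the study (limma, adjusted p-value below 0.005 with a log2 fold change beyond 0.5 in either direction), where 10.7% of all tested genes did. The choice of the set by Serpine2 fixed this, and nothing is read from it. In 2 of the 8, Serpine2 and Plat, the WT and KO samples did not overlap in TPM as deposited, against 43.2% of all tested genes (13.3% higher and 29.9% lower in KO). The count past the thresholds was also 1 with voom on the recovered reads, where 17.5% of genes passed (2.93% higher, 14.5% lower), with median-of-ratios scaling, where 13.1% passed (2.99% higher, 10.1% lower), and without WT 4, where 7.3% passed (1.7% higher, 5.6% lower). It was 2, with Plat added, at an adjusted p-value below 0.05, where 21.3% of all genes passed (4.69% higher, 16.6% lower), and among genes averaging 10 TPM or more, where 15.9% passed (3.73% higher, 12.1% lower). All 8 had passed the filter on low expression.

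**Figure D1:**
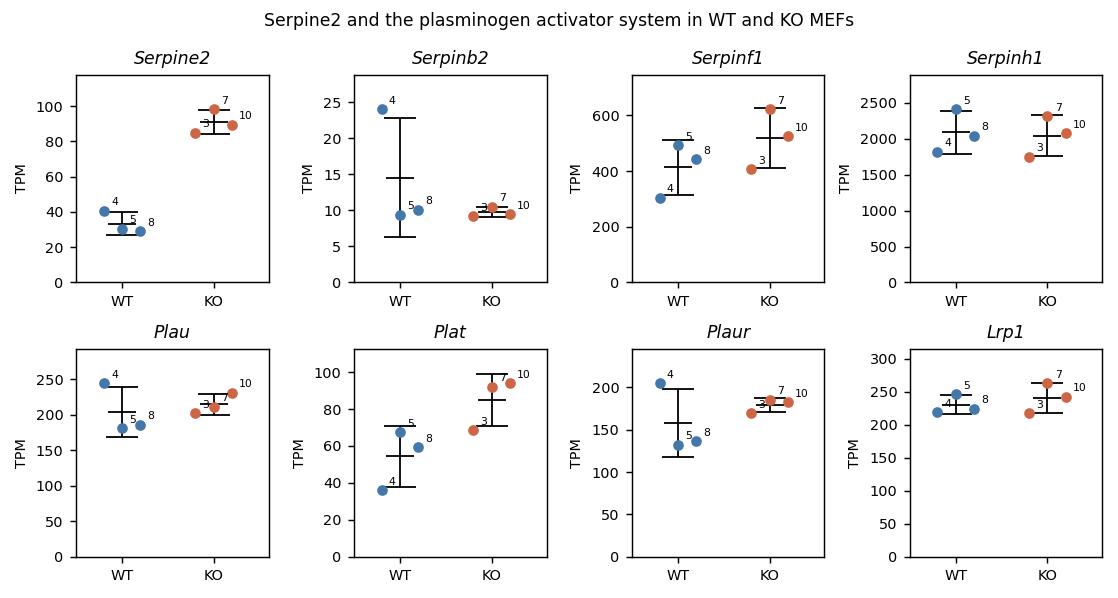
Expression in TPM of the 8 genes in each WT (blue) and KO (orange) sample, with the sample number beside each point, the group mean and SD (bars, n = 3) and axes from 0. Serpine2 is at 28.9 to 40.8 TPM in WT and 84.9 to 98.2 TPM in KO samples, and WT 4 lies at an end of the WT points in all 8 panels.

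The other 3 serpins did not show such a separation. Serpinb2 (ENSMUSG00000062345.10, chromosome 1, 107511423 to 107535478, plus strand) was at 24.1, 9.42 and 10.1 TPM in WT 4, 5 and 8 and at 9.19, 10.5 and 9.49 TPM in KO 3, 7 and 10. WT 4 alone was high, and WT 5 and 8 lay among the KO samples. The log2 fold change of -0.41 (SE 0.29) therefore came to -0.004 without WT 4. With 157 to 458 reads per sample it was also the least abundant of the 8 genes, and it shares 291 bp of exon with Serpinb10 on the same strand, so that part of its reads cannot be assigned with certainty.

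Serpinf1 (ENSMUSG00000000753.15, chromosome 11, 75409769 to 75422701, minus strand), the gene of the anti-angiogenic factor PEDF, was at 304, 494 and 442 TPM in WT 4, 5 and 8 and at 407, 623 and 525 TPM in KO 3, 7 and 10. The KO samples reached higher but KO 3 lay within the WT range. Its log2 fold change was 0.33 (SE 0.20) with all samples and 0.13 without WT 4. Serpinh1 (ENSMUSG00000070436.12, chromosome 7, 99345376 to 99353239, minus strand), which encodes HSP47, was at 1824, 2414 and 2044 TPM in WT 4, 5 and 8 and at 1750, 2312 and 2079 TPM in KO 3, 7 and 10. Both groups covered the same range. The log2 fold change of Serpinh1 was -0.03 (SE 0.14), and -0.13 without WT 4. Its sign turned with median-of-ratios scaling (0.06), without WT 5 (0.075) and without KO 3 (0.076).

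Of the plasminogen activators, Plat differed more than Plau. Plat (ENSMUSG00000031538.6, chromosome 8, 22757727 to 22782844, plus strand) was at 36.0, 67.6 and 59.3 TPM in WT 4, 5 and 8 and at 68.4, 92.1 and 93.8 TPM in KO 3, 7 and 10. The groups did not overlap, but KO 3 exceeded WT 5 by less than 1 TPM, and WT 4 was far below the other WT samples. The mean was 54.3 ± 16.4 TPM (SD, n = 3) in WT and 84.8 ± 14.2 TPM (SD, n = 3) in KO cells. The log2 fold change of 0.67 (SE 0.22) did not pass the thresholds, and without WT 4 it was 0.40. After median-of-ratios scaling, Plat was at 33, 63 and 61 scaled TPM in WT 4, 5 and 8. KO 3, 7 and 10 were then at 77, 87 and 94 scaled TPM, a wider gap between the groups, with a log2 fold change of 0.75. Plau (ENSMUSG00000021822.3, chromosome 14, 20836660 to 20843385, plus strand) was at 244, 181 and 186 TPM in WT 4, 5 and 8 and at 202, 212 and 231 TPM in KO 3, 7 and 10. The KO samples lay between WT 4 and the other WT samples, and the log2 fold change was 0.09 (SE 0.13), or 0.23 without WT 4. For Plau it was 0.01 without WT 5, 0.03 without WT 8 and 0.18 with median-of-ratios scaling. The summed TPM of both activators was 258 ± 19.3 (SD, n = 3) in WT and 300 ± 27.3 (SD, n = 3) in KO cells, with overlapping samples.

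The urokinase receptor gene Plaur (ENSMUSG00000046223.10, chromosome 7, 24462484 to 24475968, plus strand) followed the shape of Plau. It was at 205, 132 and 137 TPM in WT 4, 5 and 8 and at 170, 186 and 182 TPM in KO 3, 7 and 10. WT 4 was again above and WT 5 and 8 below all KO samples, and the log2 fold change was 0.21 (SE 0.16), or 0.41 without WT 4. For Plaur it was 0.10 without WT 5 and 0.12 without WT 8. The clearance receptor gene Lrp1 (ENSMUSG00000040249.15, chromosome 10, 127538161 to 127621148, minus strand, 88 merged exons) was the steadiest in WT cells. It was at 219, 246 and 224 TPM in WT 4, 5 and 8 and at 217, 262 and 242 TPM in KO 3, 7 and 10, and the groups overlapped. The log2 fold change of Lrp1 was 0.06 (SE 0.10), and 0.03 without WT 4. Its sign turned without KO 7 (-0.002), and with median-of-ratios scaling it was 0.15. Lrp1 was then at 201, 230 and 232 scaled TPM in WT 4, 5 and 8. KO 3, 7 and 10 were at 246, 247 and 243 scaled TPM, so that the overlap was seen only before this scaling.

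WT 4 was the highest WT sample for 4 members (Serpine2, Serpinb2, Plau and Plaur) and the lowest for the other 4 (Serpinf1, Serpinh1, Plat and Lrp1). Its ratio to the mean of WT 5 and 8 was widest for Serpinb2 (2.47) and Plat (0.568). Leaving WT 4 out thus raised the fold changes of Serpine2, Plau and Plaur and brought that of Serpinb2 close to 0. In KO cells, KO 3 had the lowest TPM for all 8 members. This sample also had the highest share of TPM in the 57 bp RNA Gm23935 (25.6%, against 15.5% to 24.3% in the other 5 samples) and the lowest median-of-ratios scale factor (0.884, against 0.966 to 1.089). After median-of-ratios scaling, KO 3 was the lowest KO sample for 3 of the 8 members. Serpine2 was then at 37.5, 28.5 and 30.0 scaled TPM in WT 4, 5 and 8 and at 96.1, 92.7 and 89.6 scaled TPM in KO 3, 7 and 10, with a log2 fold change of 1.52.

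**Figure D2:**
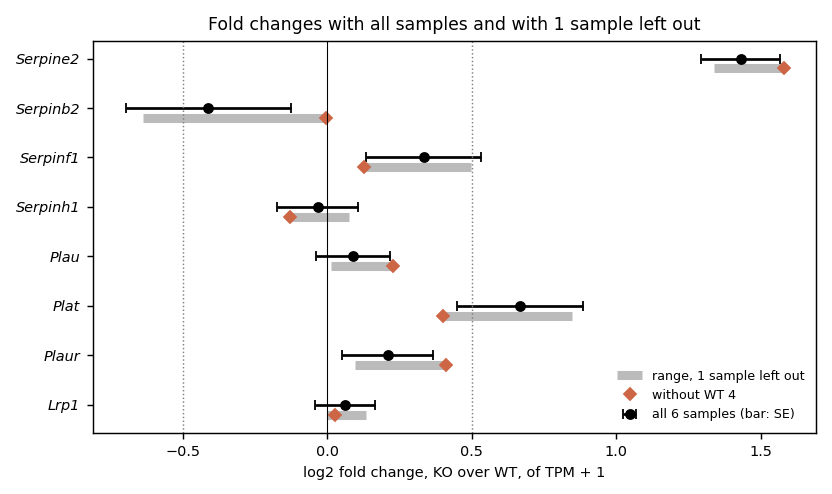
Log2 fold changes (KO over WT, of TPM + 1) of the 8 genes with all 6 samples (black points, bars show the SE), without WT 4 (diamonds), and the range over the 6 fits that each left out 1 sample (grey bars). Dotted lines mark 0.5 and -0.5. Serpine2 ran from 1.34 to 1.58, Serpinb2 from -0.64 to -0.004 and Plat from 0.40 to 0.85.

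TPM allows levels to be ordered between genes. In WT cells the order by mean was Serpinh1, Serpinf1, Lrp1, Plau, Plaur, Plat, Serpine2 and Serpinb2. The samples of Lrp1 and Plau overlapped, as did those of Plau and Plaur and those of Plat and Serpine2, and the remaining neighbours were apart. The order in KO cells was the same except that Serpine2 stood before Plat, and in KO cells the samples overlapped for Lrp1 and Plau and for Serpine2 and Plat.

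Serpine2 was also set against its targets and relatives within each sample, where the scaling of a library cancels. Since Serpine2 is part of each ratio, these too are descriptions. The ratio of Plau to Serpine2 was 5.98, 5.94 and 6.42 in WT 4, 5 and 8 and 2.38, 2.15 and 2.59 in KO 3, 7 and 10. Urokinase mRNA thus exceeded Serpine2 mRNA in every sample, by less in all KO samples. The ratio of Plat to Serpine2 was 0.883, 2.22 and 2.05 in WT 4, 5 and 8 and 0.806, 0.938 and 1.05 in KO 3, 7 and 10, and WT 4 lay among the KO samples. Of the TPM of all serpin genes, Serpinh1 held 24.9% to 34.9% in the 6 samples, while Serpine2 held 0.440% to 0.557% in WT and 1.34% to 1.39% in KO samples. The summed serpin level was 6831 ± 531 TPM (SD, n = 3) in WT and 6655 ± 548 TPM (SD, n = 3) in KO cells.

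**Figure D3:**
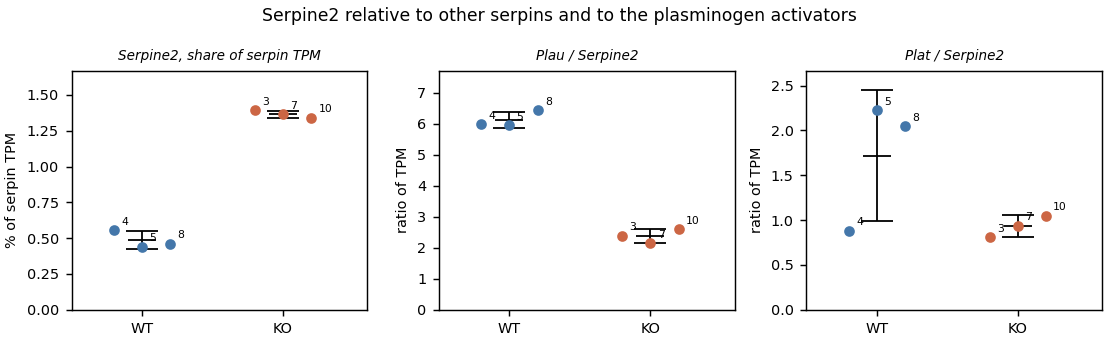
Share of Serpine2 in the TPM of all serpin genes (in %), and the TPM ratios of Plau and Plat to Serpine2, in each WT (blue) and KO (orange) sample, with the group mean and SD (n = 3) and axes from 0. The Serpine2 share and the ratio of Plau to Serpine2 separate the groups, whereas that of Plat does not because WT 4 (0.883) lies among the KO samples.

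To ask whether other genes of plasminogen activation and clearance differed, lists by role were compared, each beside all 14799 tested genes, whose median log2 fold change was -0.07 and of which 1.64% were called higher and 9.03% lower. Among cell surface receptors and cofactors of plasminogen and its activators, 1 of 13 tested genes was called lower and 0 were higher, with a median of -0.01 (4 of the 13 had an unadjusted p-value under 0.05 in limma, as did 39.4% of all tested genes). The gene called was Plgrkt, which encodes a plasminogen receptor with a C-terminal lysine. Plgrkt (ENSMUSG00000016495.12, chromosome 19, 29348599 to 29367390, minus strand) was at 11.4, 11.4 and 9.33 TPM in WT 4, 5 and 8 and at 1.48 TPM in KO 3 and 2.23 TPM in KO 7, with KO 10 between them. Every KO sample was far below every WT sample, on 41 to 82 reads in KO and 336 to 380 reads in WT samples. The mean fell to 16.2% of WT, and the log2 fold change was -2.10 (SE 0.16, limma adjusted p = 0.000137). It was called lower in all 12 alternatives that tested it. The plasminogen-binding genes Anxa2, S100a10 and Eno1 had log2 fold changes between -0.15 and 0.03 and overlapping groups, and were named after their values were seen. Of the 13, 3 were lower and 1 higher without overlap between groups, against 29.9% and 13.3% of all tested genes. Beside Plgrkt, the genes apart were Itgb1 (-0.31), Itga5 (-0.24) and Itgb3 (0.22). These did not pass the thresholds and were likewise named after their values were seen.

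The LDL receptor family, to which LRP1 belongs, and the chaperone of LRP1 had 3 of 12 tested genes called lower and 0 higher, with a median of -0.06 (6 of the 12 had an unadjusted p-value under 0.05 in limma). Lrpap1 (ENSMUSG00000029103.16, chromosome 5, 35091501 to 35105766, minus strand), which encodes the chaperone RAP that keeps LRP1 from binding ligands during its secretion, was at 33.2, 28.8 and 29.8 TPM in WT 4, 5 and 8 and at 15.6, 18.1 and 17.0 TPM in KO 3, 7 and 10. The groups were well apart. The log2 fold change of Lrpap1 was -0.82 (SE 0.11, limma adjusted p = 0.000807), and it was called in all 13 alternatives. Lrp11 averaged 12.1 ± 0.475 TPM in WT and 5.41 ± 0.648 TPM in KO cells (SD, n = 3 each). Its log2 fold change was -1.03 (SE 0.12, limma adjusted p = 0.000501), and it was called in all 12 alternatives that tested it. Lrp10 averaged 75.4 ± 3.16 TPM in WT and 49.9 ± 3.54 TPM in KO cells (SD, n = 3 each), and its log2 fold change was -0.59 (SE 0.10, limma adjusted p = 0.00220). That call was lost in 5 of the 6 fits that left out 1 sample, all but the fit without KO 7, and with no filter or no variance trend (log2 fold changes -0.65 to -0.55 without 1 sample, limma adjusted p-values from 8.92e-05 to 0.0149 over all alternatives), and Lrp10 shares 475 bp of exon with an opposite-strand gene.

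Among 13 listed inhibitors of plasminogen activators, plasmin, thrombin and the tissue factor pathway, 5 were tested. None was called, and 1 had an unadjusted p-value under 0.05 in limma, which was Tfpi. Tfpi, which encodes the inhibitor of the tissue factor pathway, was named after its values were seen. It was at 65.6, 45.5 and 38.0 TPM in WT 4, 5 and 8 and at 28.2, 26.3 and 25.7 TPM in KO 3, 7 and 10. The groups did not overlap, the log2 fold change was -0.84 (SE 0.17) and the limma adjusted p-value was 0.00689. It passed with voom on the recovered reads, with a filter of 10 TPM, at an adjusted p-value below 0.05 and without WT 8. Among plasminogen, other proteases, their growth factor substrates and tissue factor, 4 of 13 genes were tested, with 1 called lower and 0 higher (2 had an unadjusted p-value under 0.05 in limma). Plg, the plasminogen gene itself, and F10 were not found in the expression table, so that no value is given for either. F3 (ENSMUSG00000028128.13, chromosome 3, 121723537 to 121735048, plus strand), which encodes tissue factor, the cell surface trigger of thrombin formation, was at 354, 279 and 256 TPM in WT 4, 5 and 8 and at 158, 169 and 175 TPM in KO 3, 7 and 10. All KO samples lay below all WT samples, with a log2 fold change of -0.81 (SE 0.13, limma adjusted p = 0.00173). The call was lost without KO 3 (-0.77), without KO 7 (-0.81) and with no filter or no variance trend, and limma adjusted p-values ran from 1.01e-06 to 0.0107 over all alternatives. Of the protease-activated receptors, through some of which thrombin signals, 2 of 4 were tested and none was called. There were 0 at an unadjusted p-value under 0.05 in limma and 0 called with voom. F2r was at 576 ± 29.7 TPM (SD, n = 3) in WT and 603 ± 22.9 TPM (SD, n = 3) in KO cells, and F2rl1 at 89.2 ± 22.3 TPM (SD, n = 3) and 82.7 ± 7.64 TPM (SD, n = 3).

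**Figure D4:**
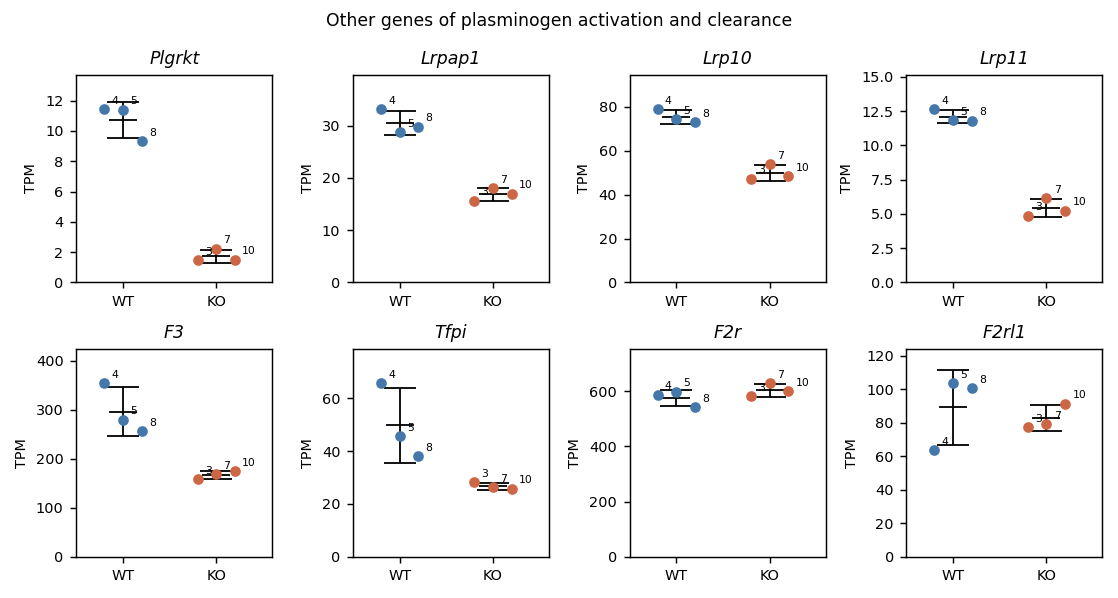
Expression in TPM of 8 other genes of plasminogen activation, clearance and thrombin control in each WT (blue) and KO (orange) sample, with the group mean and SD (n = 3) and axes from 0. Plgrkt, Lrpap1, Lrp10, Lrp11, F3 and Tfpi show no overlap between groups, whereas F2r and F2rl1 overlap.

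Collagen folding and modification, the setting in which HSP47 acts, had 1 of 16 tested genes called lower and 0 higher, with a median of 0.01 (6 of the 16 had an unadjusted p-value under 0.05 in limma). The gene was Tmem38b, an endoplasmic reticulum cation channel, which was at 6.13, 6.02 and 6.26 TPM in WT 4, 5 and 8 and at 2.46, 3.66 and 2.94 TPM in KO 3, 7 and 10. The groups were apart, and its log2 fold change was -0.84 (SE 0.15, limma adjusted p = 0.00305). The call was lost in 5 of the 6 fits that left out 1 sample, all but that without KO 7, and with no filter (-0.95 to -0.74 without 1 sample, limma adjusted p-values from 0.000489 to 0.0180 over all alternatives), and 119 bp of its exons are shared with an rRNA gene. The list also held P4hb, Fkbp10 and P3h4, named after their values were seen. Their KO samples lay above all WT samples, as in 13.3% of all tested genes. Their log2 fold changes of 0.23, 0.25 and 0.26 did not pass the thresholds. P3h3, likewise named after its values were seen, went the other way (-0.44) with overlapping groups.

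Of 37 serpin genes in the table, 15 were tested, and 4 of the 15 are members. Called were 2 higher and 0 lower, against 1.64% and 9.03% of all tested genes. Since 3 of the 15 (Serpina3h, Serpinb1a and Serpini1) passed the filter on low expression only through the KO group, no median is given for this list. Serpine2, by which the set was chosen, was 1 of the 2 called, so that its call is no support for the list either. The other was Serpina3h, annotated as a transcribed pseudogene of the antichymotrypsin cluster. Serpina3h averaged 0.486 ± 0.344 TPM in WT and 2.59 ± 0.781 TPM in KO cells (SD, n = 3 each). These values rested on 3 to 12 reads in WT and 19 to 47 reads in KO samples. As Serpina3h entered the test through the group where it is high, its call is no support for the list. Its log2 fold change was 1.28 (SE 0.24, limma adjusted p = 0.00432), and the call was lost in 5 of the 6 fits that left out 1 sample, all but that without WT 8, and with no filter or a pseudocount of 0.1 TPM (1.12 to 1.46 without 1 sample, limma adjusted p-values from 0.00259 to 0.0199 over all alternatives). Serpina3h had a log2 fold change of 2.31 with a pseudocount of 0.1 TPM and 2.52 with voom on the recovered reads. It has close relatives in its cluster, among which reads can be split. Serpinb6a, an intracellular serpin outside the 8 members, was at 73.9 ± 13.1 TPM (SD, n = 3) in WT and 64.3 ± 5.67 TPM (SD, n = 3) in KO cells (log2 fold change -0.19, limma adjusted p = 0.334), and its exons overlap opposite-strand genes.

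**Figure D5:**
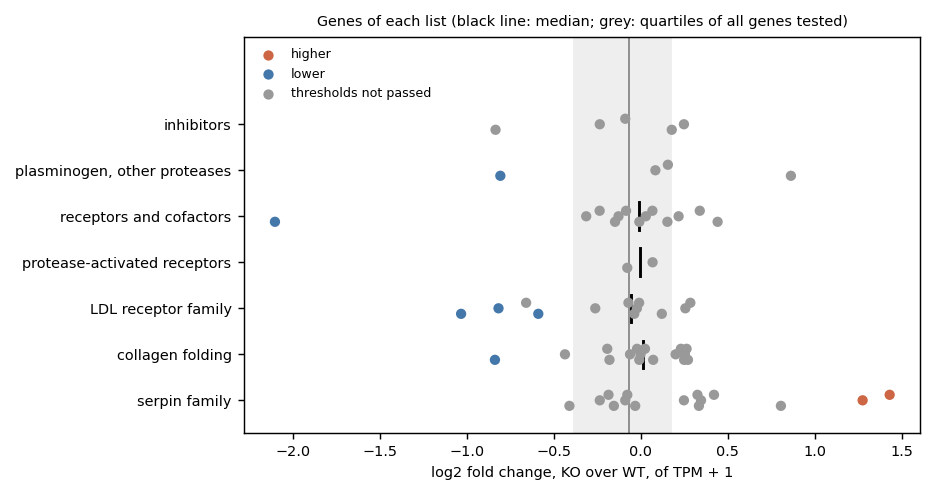
Log2 fold changes (KO over WT, of TPM + 1) of the tested genes in 7 lists, with genes called higher in orange, called lower in blue and others in grey. Black lines mark the median of the 4 lists in which no gene passed the filter on low expression through 1 group only, the grey line the median of all tested genes (-0.07) and the shaded band their quartiles (-0.38 to 0.17); the gene farthest to the left is Plgrkt at -2.10.

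The genes most like Serpine2 in their pattern over the 6 samples were sought among the 7746 other genes averaging 10 TPM or more, by the Pearson correlation of log2(TPM + 1). They were Ctsd (0.999), Cdkn1a (0.999), Dglucy (0.998), Fth1 (0.997) and Zfp365 (0.996). These are descriptions, since the 6 points fall into 2 groups and share library and scaling. Ctsd, a lysosomal protease, was at 215 ± 14.2 TPM (SD, n = 3) in WT and 313 ± 8.27 TPM (SD, n = 3) in KO cells. Cdkn1a, the cell cycle inhibitor p21, was at 267 ± 32.3 TPM (SD, n = 3) in WT and 469 ± 18.9 TPM (SD, n = 3) in KO cells. Fth1, the ferritin heavy chain, was at 241 ± 19.3 TPM (SD, n = 3) and 331 ± 9.29 TPM (SD, n = 3). In log2 terms all 5 differed less between the groups than Serpine2, with log2 fold changes of 0.46 to 0.82.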

How the data were processed

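The authors aligned reads to the mouse genome (mm10) with STAR and used DESeq2; the submitters' processing notes also name Bowtie 0.12.2, and the counting program is not given in the sources used here. The authors deposited expression as TPM for 26898 genes, each column summing to 1000000. They also deposited their own log2 fold changes and adjusted p-values, which were not used. TPM carries no depth, but TPM times the merged exon length of GENCODE M21 gave whole multiples of 1 step in each sample (100% of the 20034 to 20637 values of at most 2000 reads, tolerance 0.05), from which reads were recovered. Per the labels, 2 μg RNA entered each library and the medium held 10% serum, whereas more serum is stated for MEF cultures in the study's general methods.

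The 2 groups (n = 3 each) were fitted by limma 3.58.1 (R 4.3.3), allowing a variance trend, to log2(TPM + 1) of the 14799 genes that averaged 1 TPM or more in WT or KO, with Benjamini-Hochberg adjustment and the thresholds of the study (adjusted p-value under 0.005, log2 fold change beyond 0.5). The steps were tested on simulated data. Members and lists were chosen with earlier results of these data known. Named genes were the members, Kansl1, every called list gene, the highest gene of a list with none called, abundant other serpins and the 5 genes most like Serpine2; 1 gene that this rule names is not reported here. Alternatives were another pseudocount, filter, scaling or threshold, no variance trend, voom on recovered reads, and leaving out each sample. Lists and medians are described, with no set test. List genes with no symbol in the table were found by their GENCODE name.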

Additional observations from a re-analysis of the deposited data

How the results depend on the processing

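The log2 fold change of Serpine2, a description since the set was chosen by it, was 1.34 to 1.58 over 13 alternatives against 1.43. Against 1579 changed genes (242 higher, 1337 lower), no filter gave 341 (55 higher, 286 lower), an adjusted p-value under 0.05 gave 3147 (694 higher, 2453 lower), voom on recovered reads gave 2585 (433 higher, 2152 lower) while scaling by median-of-ratios raised the higher genes to 442. Leaving out 1 sample left between 758 and 1081 changed genes, of which 84 to 252 were higher and 617 to 938 lower. The members past the thresholds were 2 in place of 1, with Plat added, in 2 settings. These were a filter of 10 TPM on the mean, where 15.9% of tested genes passed, and an adjusted p-value under 0.05, where 21.3% did. The inhibitor list had 1 gene in place of 0, Tfpi, at 10 TPM, at an adjusted p-value under 0.05 and with voom, and 0 to 1 without 1 sample. The list of plasminogen and other proteases had 0 in place of 1 with no filter and with no variance trend, 2 at an adjusted p-value under 0.05 and with voom, where St14 was added as higher (it passed the filter on low expression only through the KO group), and 0 to 1 without 1 sample. The list of receptors and cofactors had 0 in place of 1 at 10 TPM, where Plgrkt was not tested. The LDL receptor list had 2 in place of 3 with no filter and with no variance trend, where Lrp10 was lost. It also had 2 at 10 TPM, where Lrp11 was not tested. The list had 4 at an adjusted p-value under 0.05 and with voom, where Lrp3 was added as lower, and 2 to 3 without 1 sample. The collagen folding list had 0 in place of 1 with no filter and at 10 TPM, where Tmem38b was not tested, and 0 to 1 without 1 sample. The serpin list had 1 in place of 2 with a pseudocount of 0.1 TPM, with no filter and at 10 TPM, where Serpina3h was not tested. It had 3 at an adjusted p-value under 0.05, where Serpina3g was added as higher, and 1 to 2 without 1 sample. Where no cause is given, the cause was not tested. No paired analysis was possible because no replicate number occurs in both groups. Depth may limit the values of weakly expressed genes such as Serpina3h, St14, C1qc, Tmem38b, Plgrkt and Serpinb2, which was not tested.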
